A study of Ovis aries with 23 samples.

Results

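RNA-seq profiles of the ovine pars tuberalis (PT) were compared between sheep held on short photoperiod (SP) and sheep on the first day of long photoperiod (LP day 1). All samples labelled with either condition were kept, which gave 5 SP samples and 6 LP day 1 samples out of 23 samples in the series. The animals were neutered male Scottish blackface sheep, and neutering, breed, sex, and tissue were common to both groups. SP animals received the shorter light phase and longer night, and LP day 1 animals had been moved from SP to the reversed schedule. The other 12 samples were taken after 7 or 28 days of LP. The labels gave no age, no time of day at collection, and no animal identity, so each sample was treated as a separate replicate, and p-values then measure the spread between these samples, which may in part be technical. The animals had no testes, so gonadal feedback on the pituitary was absent from both groups.

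The PT is a thin sheet of endocrine tissue on the pituitary stalk, rich in melatonin receptors. Its thyrotroph cells read day length through the nightly melatonin signal. On long days the transcriptional coactivator EYA3 acts on the gene for the thyrotropin β subunit (TSHB), and PT thyrotropin then signals to tanycytes of the adjacent hypothalamus, which set local thyroid hormone levels. Chromogranin A (CHGA), a protein of secretory granules, marks PT thyrotrophs in the short-day state. The comparison asks which of these genes, and which others, had moved by the first long day.

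Expression is given as CPM (counts scaled to a library of fixed size), normalized by the TMM method over all 23 samples, and differences as log2 fold changes of LP day 1 against SP, so that positive values are higher at LP day 1. Total counts per sample were 3048390 to 3691321 on SP and 307952 to 3674567 at LP day 1. The lowest total belonged to LP day 1 sample 4, where 3 counts correspond to 9.74 CPM, so low-expressed genes in that sample rest on a handful of reads. Pairs of samples were also compared at an equal depth of 307952 counts by the chi-square per gene, which is near 1 for counting noise alone. LP day 1 samples 3 and 4 gave 1.10, whereas the other pairs gave 1.55 to 8.02 with a median of 2.97. The labels do not say whether these 2 samples came from separate animals, and if they did not, LP day 1 has 5 independent samples. They were counted separately, and results are also given with them summed. Folder numbers in the file headers recur 8 times across the series, each time linking one of samples 1 to 3 with one of samples 4 to 6. Samples 1 to 3 and samples 4 to 6 were therefore also taken as 2 sets, each with samples of both groups. The headers do not say what the folders stand for, so whether the sets are batches is not known.

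No gene passed a false discovery rate (FDR) under 0.05 in edgeR's quasi-likelihood test among 14920 genes tested (0% called). At an unadjusted p under 0.05, 240 genes were higher at LP day 1 (1.61% of those tested) and 257 were lower (1.72%), together 497 genes (3.33%). If no gene differed, 746 would be expected at that cutoff. The smallest FDR was 0.638. In 13 genes (0.0871%) every LP day 1 sample lay above every SP sample, and in 20 genes (0.134%) every LP day 1 sample lay below every SP sample. How many genes would separate by chance was not computed, so these counts do not show an excess. The median log2 fold change over all genes was 0.0018 and the 5th and 95th percentiles were -0.46 and 0.48. The unadjusted 95% interval of the median gene reached 0.44 to either side on the log2 scale. Gene symbols could be attached to 1065 of the tested genes, all of them genes that the study itself had listed as regulated in one of its comparisons, so the lists below are not independent evidence of a direction.

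Sonic hedgehog and a thyroid hormone transporter were the genes with a symbol whose LP day 1 values all lay above the SP values. Sonic hedgehog (SHH, ENSOARG00000006942) is a secreted morphogen that patterns the developing pituitary and brain. SP samples 1 to 5 had 12.7, 9.48, 8.37, 8.75, and 17.8 CPM of SHH. At LP day 1 the lowest, median, and highest values were 18.3, 38.8, and 62.3 CPM. The groups did not overlap, but the highest SP sample and the lowest LP day 1 sample were nearly level, and LP day 1 samples 3, 4, and 5, at 55.3, 62.3, and 60.8 CPM, stood well above samples 1, 2, and 6, at 22.4, 19.1, and 18.3 CPM. Samples 3 and 4 are the pair that differed least from each other. The mean was 11.4 ± 3.95 CPM on SP (SD, n = 5) and 39.7 ± 21.8 CPM in 6 LP day 1 samples, and the fitted difference was 3.27-fold, or a log2 fold change of 1.71 (standard error [SE] 0.35, 95% interval 0.96 to 2.45). Its FDR was 0.638 by edgeR's quasi-likelihood test and 0.00383 by DESeq2 on the same samples.

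SLCO1C1 (ENSOARG00000020436) encodes an organic anion transporter that carries thyroxine across cell membranes and is known from brain capillaries. Its SP samples had 29.1, 24.7, 23.7, 26.3, and 39.2 CPM, and the LP day 1 samples had a lowest value of 45.6, a median of 58.4, and a highest value of 136 CPM. Every LP day 1 sample was above every SP sample, and LP day 1 sample 5 had more than any other. Its log2 fold change was 1.28 (SE 0.25, 95% interval 0.75 to 1.80), a 2.42-fold difference, with an FDR of 0.638 by edgeR's quasi-likelihood test and 0.00383 by DESeq2. SHH and SLCO1C1 were the only genes that DESeq2 called. Since the groups did not overlap in either gene, the direction within each set of samples was given in advance, and only the size could differ. SHH gave log2 fold changes of 1.65 in samples 1 to 3 and 1.72 in samples 4 to 6, and SLCO1C1 gave 1.12 and 1.37. With LP day 1 samples 3 and 4 summed, the values were 1.62 and 1.29, with an edgeR FDR of 1.00 for both.

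In the other direction, C6 and PRAM1 were the genes with a symbol whose LP day 1 values all lay below the SP values. C6 (ENSOARG00000008985) encodes a component of the complement membrane attack complex. SP samples 1 to 5 had 20.1, 14.2, 14.7, 15.6, and 36.4 CPM, against a lowest value of 5.93, a median of 7.71, and a highest value of 11 CPM at LP day 1. The SP mean was raised by sample 5, yet the lowest SP sample still exceeded the highest LP day 1 sample. LP day 1 differed from SP by a log2 fold change of -1.31 (SE 0.27, FDR 0.638 by edgeR's quasi-likelihood test), and it was -0.90 in samples 1 to 3 and -1.88 in samples 4 to 6. The sign in each set likewise followed from the lack of overlap. An exact test with gene-wise dispersion gave C6 an FDR of 0.032. That test called 7 genes, 2 higher (SHH and SLCO1C1, both at FDR 0.0091) and 5 lower, of which IGJ, at FDR 0.0183, was the only other with a symbol. PRAM1 (ENSOARG00000004053), an adaptor protein of myeloid cells, had 19.9, 23, 15, 19.4, and 17.2 CPM on SP and between 7.28 and 14.8 CPM at LP day 1, with a median of 11.3 CPM. The highest LP day 1 value, from 5 counts in shallow sample 4, was close to the lowest SP value. The fit gave a log2 fold change of -0.84 (SE 0.21, edgeR FDR 0.811).

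**Figure D1:**
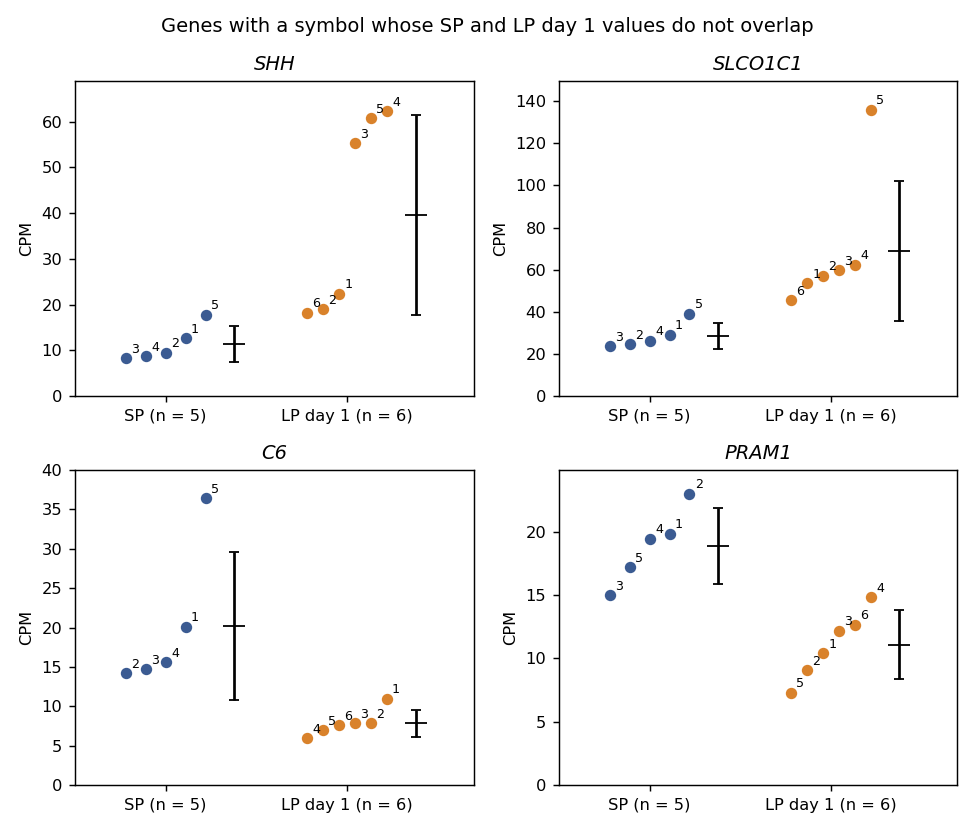
CPM of SHH, SLCO1C1, C6, and PRAM1 in each SP (blue) and LP day 1 (orange) sample, arranged by value and marked with the sample number, with the mean and SD as black bars. The groups do not overlap in any of the 4 genes, and SHH falls into a higher and a lower trio of samples at LP day 1.

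The later LP days, which share none of the LP day 1 samples, place these values on a time course. SHH had 82.2 ± 16.4 CPM at day 7 and 40.8 ± 11.7 CPM at day 28 (SD, n = 6 each). SLCO1C1 had 133 ± 31.6 CPM at day 7 and 100.3 ± 14.4 CPM at day 28. Both genes had a higher mean at day 7 than at day 1. C6 had 11.4 ± 4.75 CPM at day 7 and 15.6 ± 9.52 CPM at day 28, and PRAM1 had 14.2 ± 2.82 and 11.4 ± 1.57 CPM. These later levels were set beside the day 1 values without a test, since each LP day is read against the same SP samples.

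A few further genes with a symbol were near the top of the ranking although their groups overlapped, and were picked after their values were seen. CNTN2, an axonal adhesion molecule, had 31.5 to 57.8 CPM on SP and 52.5 to 79.0 CPM at LP day 1, with a log2 fold change of 0.66 (SE 0.16, edgeR FDR 0.811). NETO2, an auxiliary subunit of kainate receptors, had a log2 fold change of 1.28 from values of 1.59 to 5.64 CPM on SP and 5.58 to 11.9 CPM at LP day 1. NAV2, which acts in neurite outgrowth, had 0.75, and PTPN5, a neuronal tyrosine phosphatase, had 1.00. None of these genes reached FDR 0.05, and in each the ranges of the groups touched or crossed. The melanin-pathway enzyme DCT was at 11.1 ± 8.07 CPM on SP (SD, n = 5) and 28.4 ± 15 CPM in 6 LP day 1 samples, a log2 fold change of 1.30. Its mean was 236 CPM at day 7 and 75.4 CPM at day 28, so the LP day 1 level lay between SP and the later days. CST6, a cysteine protease inhibitor, was lower at LP day 1, with 29.6 to 68.4 CPM on SP and 14.7 to 39.7 CPM at LP day 1 and a log2 fold change of -0.78.

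Most of the non-overlapping genes carried no symbol and are known here by their identifiers alone. ENSOARG00000019533 had 0.289 to 1.41 CPM on SP and 2.03 to 4.37 CPM at LP day 1. These values rested on 1 to 5 counts per SP sample and on 1 count in LP day 1 sample 4. ENSOARG00000007505 had 18.5 to 26.3 CPM on SP and 28.7 to 47.5 CPM at LP day 1. On the lower side, ENSOARG00000005900 had 32.0 to 43.3 CPM on SP and 22.8 to 28.0 CPM at LP day 1, a narrow spread in both groups. Their log2 fold changes were 1.80, 0.60, and -0.61, with SEs of 0.42, 0.16, and 0.14 and edgeR FDRs of 0.811, 1.00, and 0.811. A gene with overlapping groups, ENSOARG00000020789, was picked after its values were seen because the exact test called it at FDR 0.0091. It had 255, 0.677, 493, 12.6, and 5.92 CPM in SP samples 1 to 5 and 0 to 8.01 CPM at LP day 1. Its high values stood in SP samples 1 and 3, and its edgeR FDR in the quasi-likelihood test was 0.638.

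The genes of the thyrotroph relay itself did not pass the test on the first long day. Of 11 members tested, 5 had a positive and 6 a negative log2 fold change, none reached an unadjusted p of 0.05, and their median was -0.0012, next to 0.0018 for all genes. EYA3 (ENSOARG00000003071) had 37.1, 23, 28.3, 36.0, and 35.0 CPM in SP samples 1 to 5. The LP day 1 samples spread from 20.4 CPM through a median of 44.7 to 75.6 CPM. Samples 1, 2, and 6, at 60.4, 53.7, and 75.6 CPM, were above every SP sample, while samples 3, 4, and 5, at 30.3, 35.6, and 20.4 CPM, were within or below the SP range. These are the trios that SHH divided the other way, with samples 3, 4, and 5 the higher in SHH. Samples 3 and 4 are the pair that differed least, and sample 4 had only 12 counts of EYA3 and 21 of SHH. On SP no such division was seen. EYA3 was at 37.1 and 35.0 CPM in SP samples 1 and 5, the highest in SHH, and at 36.0 CPM in SP sample 4, which was low in SHH. For EYA3 the log2 fold change was 0.55 (SE 0.26, 95% interval -0.01 to 1.10, unadjusted p = 0.053, edgeR FDR 1.00). It stood at 299 ± 364 CPM at day 7 and 191 ± 196 CPM at day 28, and the largest single value at day 7 was 969 CPM. The medians were 186 CPM at day 7 and 90.8 CPM at day 28, both above the LP day 1 median. The lowest values, 30.9 CPM at day 7 and 37.6 CPM at day 28, lay within the LP day 1 range.

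TSHB (ENSOARG00000020127) had 207, 664, 47.0, 625, and 265 CPM on SP and a lowest value of 174, a median of 253, and a highest value of 394 CPM at LP day 1. The SP samples spanned the whole LP day 1 range. The log2 fold change was -0.49 (SE 0.43, 95% interval -1.39 to 0.41, edgeR FDR 1.00), an interval too wide to set a direction. TSHB is also made by thyrotrophs of the pars distalis, and the reads do not separate the 2 sources. The α subunit shared by the glycoprotein hormones, CGA (ENSOARG00000013153), had 8384 ± 892 CPM on SP (SD, n = 5) and 8507 ± 3128 CPM in 6 LP day 1 samples, with a log2 fold change of 0.02 (SE 0.22). Both thyrotropin subunits were detected in all 11 samples.

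No short-day marker passed the test either, although most had lower estimates at LP day 1. CHGA (ENSOARG00000013347) had 4292, 3632, 2629, 2776, and 3591 CPM on SP and 1774, 2875, and 3548 CPM as the lowest, median, and highest values at LP day 1. Only LP day 1 samples 1, 2, and 5 were below the lowest SP sample. Its log2 fold change was -0.29 (SE 0.18, 95% interval -0.67 to 0.09, edgeR FDR 1.00), and its mean was 1534 CPM at day 7 and 1051 CPM at day 28. Of the 7 short-day markers tested, 6 had a negative log2 fold change and none an unadjusted p under 0.05, with a median of -0.34. NPSR1, a neuropeptide receptor, gave -0.34, SOX14, a developmental transcription factor, gave -0.51, C1orf110 gave -0.11, and PAQR6, a membrane progestin receptor, gave 0.01. All 4 had SEs between 0.32 and 0.48.

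**Figure D2:**
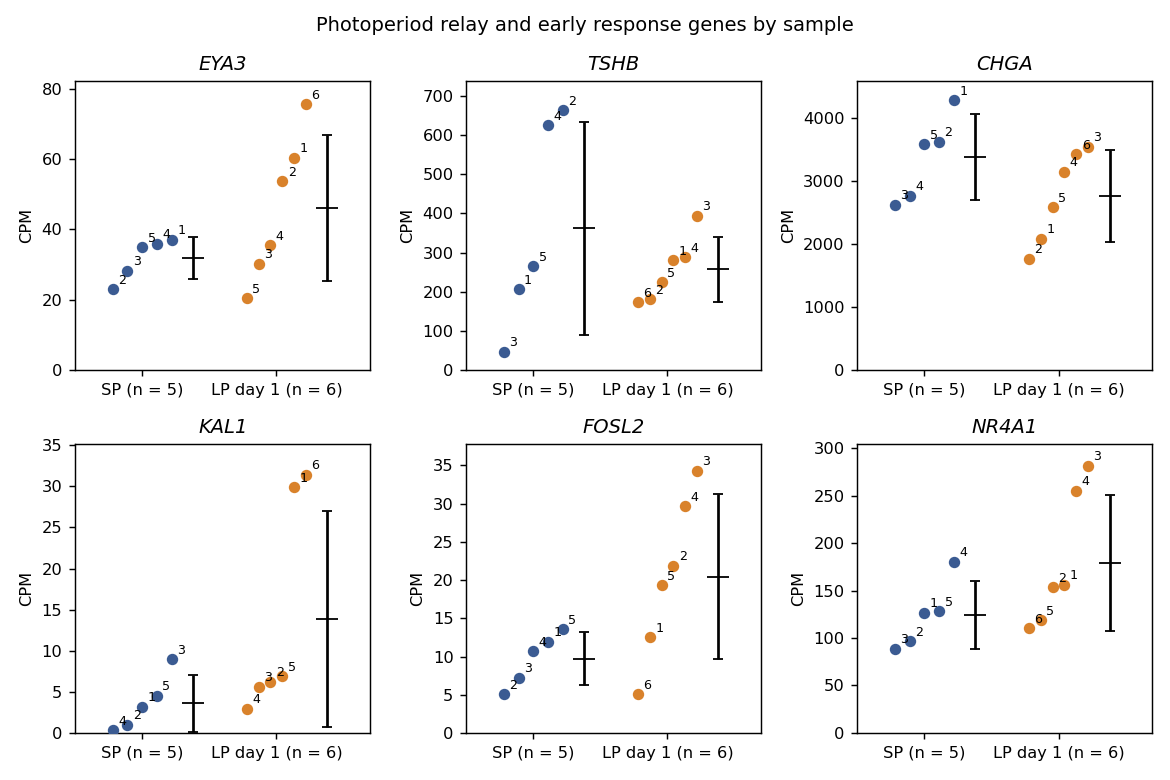
CPM of EYA3, TSHB, CHGA, KAL1, FOSL2, and NR4A1 in each SP (blue) and LP day 1 (orange) sample, arranged by value and marked with the sample number, with the mean and SD as black bars. All 6 genes overlap between the groups, and 3 LP day 1 samples of EYA3 and 2 of KAL1 stand above the rest.

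Genes of the immediate-early response, which are transcribed within minutes of a stimulus and are a known early target of changes in melatonin and cyclic AMP signaling, had 3 members among the genes that were higher before adjustment. Of 28 symbols on the list, only 7 could be paired with an identifier and tested. Of these 7, 3 had an unadjusted p under 0.05 and all 3 were higher at LP day 1, and the median was 0.46. Among all genes 1.61% were higher at that level. Among the 1065 genes with a symbol, from which the list was drawn, 58 were. FOSL2 (ENSOARG00000019483), an AP-1 transcription factor, had 11.9, 5.08, 7.21, 10.7, and 13.5 CPM on SP and 5.07, 20.6, and 34.3 CPM as the lowest, median, and highest at LP day 1. Samples 2, 3, 4, and 5 were above every SP sample and sample 6 was below every one. The fitted log2 fold change was 1.01 (SE 0.37, edgeR FDR 1.00). It was 1.47 in samples 1 to 3 and 0.31 in samples 4 to 6, so its size differed between these sets.

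The orphan nuclear receptors NR4A1 and NR4A2 were the other members at this level. NR4A1 (ENSOARG00000017214) had 127, 96.8, 88.9, 181, and 128 CPM on SP and 111 to 282 CPM at LP day 1, and the highest values belonged to samples 3 and 4, the pair of samples that differed least from each other. Its log2 fold change was 0.50 (SE 0.24, unadjusted p = 0.0487 in edgeR). NR4A2 had 21.3 to 34.0 CPM on SP and 24.4 to 74.2 CPM at LP day 1 and a log2 fold change of 0.46 (SE 0.22, unadjusted p = 0.0495 in edgeR). EGR1, a zinc finger factor of the same class, had a log2 fold change of 0.50 (SE 0.29). With LP day 1 samples 3 and 4 summed, 1 of the 7 genes had an unadjusted p under 0.05, and without sample 3 none had. The same was so in samples 4 to 6 taken alone, where the median of the list was 0.14.

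**Figure D3:**
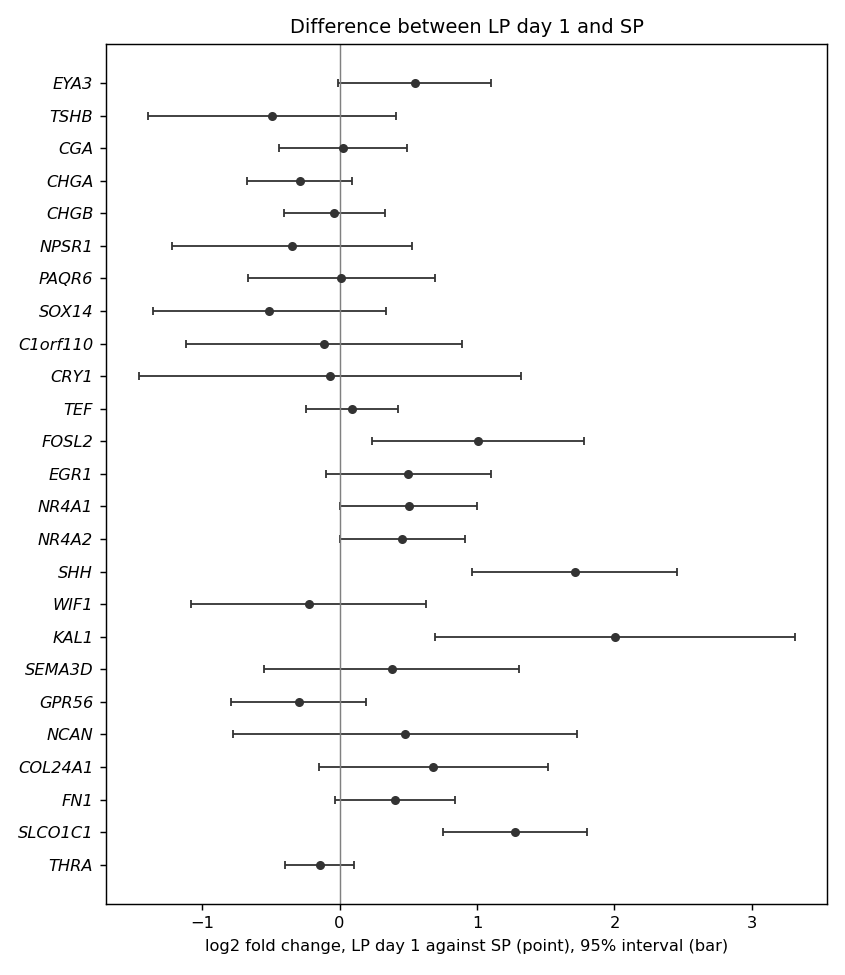
Log2 fold change of LP day 1 against SP (points) with its 95% interval (bars) for genes of the thyrotroph relay, short-day markers, clock, early response, morphogens, matrix, and thyroid hormone lists. The intervals of SHH, SLCO1C1, KAL1, FOSL2, NR4A1, and NR4A2 exclude 0 before adjustment, and those of EYA3, TSHB, and CHGA include it.

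Among genes of axon guidance and adhesion, KAL1 (ENSOARG00000009753) stood apart. It encodes anosmin, an extracellular matrix protein that guides migrating gonadotropin-releasing hormone neurons. SP samples had 3.18, 1.02, 8.94, 0.324, and 4.51 CPM. LP day 1 samples 1 and 6 had 29.9 and 31.4 CPM and the other 4 had 2.97 to 6.92 CPM, within the SP range. The log2 fold change of 2.00 (SE 0.62, unadjusted p = 0.0049, edgeR FDR 1.00) thus rested on these 2 samples. LP day 1 samples 1 and 6 were also the samples of that group with low CRY1, described below, and with the CRY1 level as a covariate the log2 fold change was 1.95 (edgeR FDR 0.639). Its mean was 27.6 ± 24.5 CPM at day 7 and 26.9 ± 16 CPM at day 28 (SD, n = 6 each).

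KAL1 was the only one of 5 axon guidance genes tested with an unadjusted p under 0.05, and the median of that list was -0.01. SEMA3D, a secreted semaphorin, was at 0.866 to 2.54 CPM on SP and 1.01 to 2.97 CPM at LP day 1, near the limit of detection, with a log2 fold change of 0.38 (SE 0.44). None of 9 matrix and adhesion genes tested reached an unadjusted p of 0.05. Fibronectin (FN1) had 68.1 to 180 CPM on SP and 131 to 192 CPM at LP day 1, and differed by a log2 fold change of 0.41 (SE 0.21). The fibrillar collagen COL24A1 gave 0.68 (SE 0.40), the brain proteoglycan NCAN 0.48 (0.59), the adhesion receptor GPR56 -0.30 (0.23), and the neural cell adhesion molecule L1CAM -0.07 (0.12). DNAH8 was too low to be tested.

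SHH was the only one of 4 hedgehog and Wnt genes at this level. WIF1, a secreted inhibitor of Wnt ligands, had 32.8 to 143 CPM on SP and 19.4 to 129 CPM at LP day 1, with a log2 fold change of -0.22 (SE 0.41). Likewise SLCO1C1 was the only one of 5 genes of thyroid hormone metabolism and transport. The thyroid hormone receptor THRA had a log2 fold change of -0.14 (SE 0.12), and its 95% interval, -0.39 to 0.11, included 0. Of 7 secretory granule genes, none had an unadjusted p under 0.05, and chromogranin B (CHGB) gave -0.04 (SE 0.17). Of 3 cell division genes, none had an unadjusted p under 0.05. TOP2A, the topoisomerase of dividing cells, was at 4.40 to 10.1 CPM on SP and 4.56 to 16.9 CPM at LP day 1. Neither of 2 stress response genes reached this level, and PDK4, a glucocorticoid-responsive kinase, had a log2 fold change of 0.45 (SE 0.22).

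No clock gene passed the test, but CRY1 divided the samples of both groups. None of 11 clock genes tested had an unadjusted p under 0.05, and their median was 0.08. TEF, a clock-controlled transcription factor, had 109 ± 26.4 CPM on SP (SD, n = 5) and 119 ± 20.7 CPM in 6 LP day 1 samples. CRY1 (ENSOARG00000017816), the clock repressor that melatonin induces in the PT at the onset of night, had 22.5, 206, 22.8, 237, and 406 CPM in SP samples 1 to 5 and 28.3, 235, 261, 282, 209, and 34.5 CPM in LP day 1 samples 1 to 6. No sample lay between 34.5 and 206 CPM. Above 80 CPM were 3 SP and 4 LP day 1 samples, and below it 2 SP and 2 LP day 1 samples, so both groups held both levels in similar parts. Between the groups CRY1 differed by a log2 fold change of -0.07 (SE 0.66). With the CRY1 level as a covariate, again no gene passed FDR 0.05, and 250 genes were higher and 250 lower at an unadjusted p under 0.05. SHH and SLCO1C1 then had log2 fold changes of 1.60 and 1.23. What set the CRY1 level in a sample was not tested, and the labels hold no hour of collection.

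**Figure D4:**
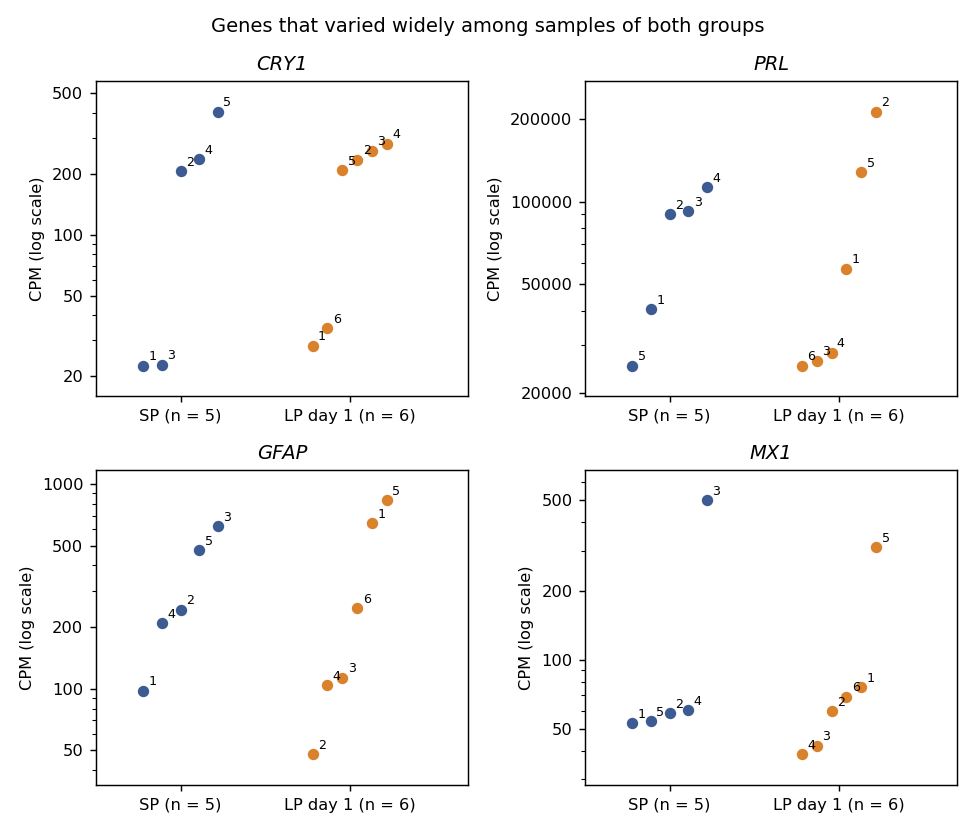
CPM of CRY1, PRL, GFAP, and MX1 on log scales in each SP (blue) and LP day 1 (orange) sample, arranged by value and marked with the sample number. CRY1 falls into 2 levels in both groups, PRL and GFAP spread widely in both, and MX1 is high in SP sample 3 and LP day 1 sample 5.

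Levels of marker genes of neighboring cell types differed widely between samples. Prolactin (PRL), the hormone of pars distalis lactotrophs, ran from 25237 to 112645 CPM on SP and from 25231 to 213046 CPM at LP day 1, and took 2.69% to 18.6% of all counts in LP day 1 samples. The summed CPM of 8 pars distalis markers was 35061 to 141041 on SP and 46699 to 271193 at LP day 1. None of the 8 had an unadjusted p under 0.05, their median log2 fold change was 0.09, and that of PRL was 0.13 (SE 0.51). GFAP, a glial filament protein found in folliculostellate cells and tanycytes, had 97.7 to 623 CPM on SP and 47.8 to 832 CPM at LP day 1, with a log2 fold change of 0.03 (SE 0.58). ALDH1A1, a retinoic acid-producing enzyme, had -0.14 (0.17). Folliculostellate markers (3 genes), tanycyte and hypothalamus markers (3), and fibroblast markers (4) likewise had no member at an unadjusted p under 0.05. Their medians were 0.03, 0.25, and -0.04. In bulk tissue, a change in the number of cells of a type and a change in RNA per cell cannot be told apart. LP day 1 sample 5 had the highest summed level of folliculostellate markers, 1375 CPM, and of tanycyte and hypothalamus markers, 129 CPM. GFAP made 832 CPM of the first sum. ALDH1A1, from the same list, was at 362 CPM in that sample, the lowest of its group. Sample 5 was also the sample with most SLCO1C1. Without that sample, the log2 fold change of SLCO1C1 was 0.94. The part of tissue content in these differences was not tested.

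A group of 14 genes of leukocytes and antigen presentation, PRAM1 included, was gathered after their values were seen. All had an unadjusted p under 0.05 and were lower at LP day 1, so their common direction is fixed by the choice, and leukocyte genes that did not pass were not counted. IGJ (ENSOARG00000011599), the joining chain of polymeric antibodies made by plasma cells, had 66.0, 2.71, 37.8, 114, and 35.8 CPM on SP and 4.56, 6.56, and 18.6 CPM as the lowest, median, and highest at LP day 1. Apart from SP sample 2, every SP sample was above every LP day 1 sample. Its log2 fold change was -2.58 (SE 0.57, edgeR FDR 0.661). Without SP sample 2 it was -2.89 with an edgeR FDR of 0.00629, the smallest for IGJ in 11 fits that left out 1 sample. In that fit 4 genes were called, IGJ and 3 without a symbol. One of these, ENSOARG00000009143, had 2396, 10.2, 1107, 2549, and 865 CPM on SP and 86.0 to 339 CPM at LP day 1, again with SP sample 2 below all others. Its log2 fold change was -3.0 (SE 0.70), or -3.32 without that sample.

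SP sample 4 was the highest and SP sample 2 the lowest of the SP samples in most of the other genes. PTPRC, a tyrosine phosphatase on the surface of leukocytes, had 44.5, 8.80, 46.7, 91.7, and 37.5 CPM on SP and 17.7 to 25.9 CPM at LP day 1. The LP day 1 samples were close together, and the SP samples lay on both sides of them. The log2 fold change was -1.01 (SE 0.35, edgeR FDR 1.00). CD74, the invariant chain of class II molecules, had 416, 151, 430, 754, and 332 CPM on SP and 194 to 288 CPM at LP day 1, with a log2 fold change of -0.79 (SE 0.26). The class I light chain B2M gave -0.46, the class II gene OVAR-DQA2 -0.55, and the class I regulator NLRC5 -0.81. The lymphocyte surface genes CD2, CD6, ITGAL, and ICAM3 gave -0.84, -1.30, -0.91, and -0.73. The interferon γ-responsive genes CXCL9, IP-10, and INDO gave -1.61, -1.34, and -1.19. SP sample 4 was the highest of all 11 samples in 12 of the 14 genes, and SP sample 2 the lowest in its group in 12. PRAM1 ran the other way, with SP sample 2 the highest of all 11 samples. Their summed CPM was 2792 in SP sample 4 and 875 in SP sample 2, and 868 to 1098 at LP day 1. The median log2 fold change of the 14 genes was -0.88. It was -0.62 without SP sample 4 and -1.12 without SP sample 2, and -0.34 with SP samples 2, 3, and 5 alone. In samples 1 to 3 it was -0.60, and in samples 4 to 6 it was -1.49.

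**Figure D5:**
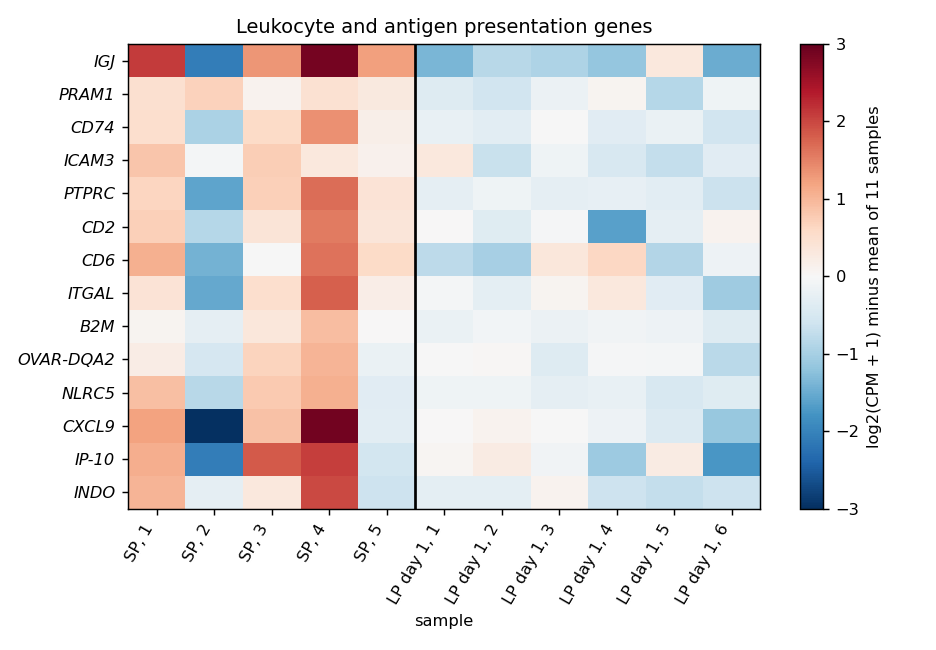
Level of the 14 leukocyte and antigen presentation genes in each of the 5 SP and 6 LP day 1 samples, as log2(CPM + 1) minus the mean of the 11 samples (red higher, blue lower). SP sample 4 is highest in 12 of the genes, SP sample 2 is low in most of them, and the LP day 1 samples vary less.

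Genes of the interferon response were carried by a single sample in each group. All 12 tested had a negative log2 fold change with a median of -0.54, and none reached an unadjusted p of 0.05. MX1 (ENSOARG00000010283), an antiviral GTPase, had 52.7, 58.6, 499.7, 60.3, and 53.9 CPM in SP samples 1 to 5 and 75.9, 59.7, 42.1, 38.6, 311, and 69.0 CPM in LP day 1 samples 1 to 6. Outside SP sample 3 and LP day 1 sample 5, all values lay between 38.6 and 75.9 CPM. SP sample 3 was the highest SP sample in all 12 genes, and LP day 1 sample 5 the highest of its group in 10. OAS2, an RNA-sensing synthetase, had 316 CPM in SP sample 3 and 155 CPM in LP day 1 sample 5, and 17.8 to 31.0 CPM in the others. IRF9, a factor that transmits the interferon signal, had 207 and 136 CPM in these samples and 51.2 to 89 CPM in the others. Without SP sample 3 the median of the list was 0.46, and without both samples it was 0.0056, with 6 genes on either side. The direction over the whole groups turned when the single SP sample was left out.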

How the data were processed

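PT RNA was extracted with a Qiagen kit and made into standard Illumina libraries. The authors deposited raw counts of reads per Ensembl gene, 25197 genes per sample. The submitters' processing notes name Bowtie, HTSeq, and the build Oar_v3.1, whereas the file headers have the form that featureCounts writes. The strand setting is not given in the sources used here, so overlapping and antisense genes cannot be separated. Groups came from sample titles. In R 4.3.3, edgeR 4.0.16 was used on the 11 samples with TMM normalization, a filter that kept genes above 1 CPM in 5 or more samples, and the quasi-likelihood test with Benjamini-Hochberg adjustment (FDR under 0.05). Intervals of log2 fold changes are 95% intervals. Alternatives were DESeq2 1.42.0, limma 3.58.1 voom, exact tests, other normalizations, filters, samples, and covariates, and each sample left out. The fits were tested on simulated data. Without molecular identifiers, reads may be copies of 1 molecule, and detection limits cover counting error only.

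Symbols for 1259 identifiers were copied from the study's supplementary gene tables, and no symbol was read from the reference table, which uses another assembly. Lists on endoplasmic reticulum, endothelium, and red cells had no paired member. Most other lists were paired only in part. Pairing reached 4 of 25 symbols for hedgehog and Wnt, 6 of 30 for axon guidance, 3 of 18 for cell division, and 12 of 21 for the clock. The members and lists were chosen with earlier results of these data known. Named genes were those at FDR under 0.05, up to 10 non-overlapping genes with a symbol in each direction, genes the study names for the PT, list members at an unadjusted p under 0.05 and up to 3 abundant others, CRY1, and PRL. COL24A1 was added beside these, although the main text of the study does not name it. Other genes outside this rule are marked as picked after their values were seen or have no symbol. No sequence or chromosome position was used here. One list member is not reported here.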

Additional observations from a re-analysis of the deposited data

Results flagged for a closer look

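Single samples far from the rest of their group were looked for with Dixon's test in 122 groups of 5 or 6 values. By chance about 1 in 20 is flagged if groups are independent, and 11 values stood out, against 6.1 by that rate. The groups were not independent, since MX1, IRF9, and OAS2 were high in the same samples, and some genes were picked after their values were seen. These numbers therefore cannot show an excess. LP day 1 sample 5 was the highest of its group in SLCO1C1 at 136 CPM, in MX1 at 311 CPM, in OAS2 at 155 CPM, and in IGJ at 18.6 CPM. SP sample 3 was the highest of its group in MX1 at 499.7 CPM, in IRF9 at 207 CPM, and in OAS2 at 316 CPM. C6 stood out in SP sample 5 at 36.4 CPM and in LP day 1 sample 1 at 11 CPM, both the highest of their groups, and the LP day 1 value remained below the lowest SP value. LP day 1 sample 2, the sample with most PRL, was the highest in TOP2A at 16.9 CPM and in ALDH1A1 at 628 CPM.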

How the results depend on the processing

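The number of genes called was 0 in the quasi-likelihood test and 0 under 15 of 18 alternatives other than leaving out 1 sample. It was 2 with DESeq2, 7 with an exact test with gene-wise dispersion, and 68 (17 higher, 51 lower) with an exact test with a common dispersion. Leaving out each sample in turn gave 0 to 4 calls, the 4 without SP sample 2, with 182 to 327 genes higher and 199 to 324 lower at an unadjusted p under 0.05, where the values were 240 and 257. Genes at that level were 361 higher and 415 lower with the common dispersion, 394 lower with no filter, 166 lower with SP samples 2, 3, and 5 alone, and 370 higher without SP sample 3 and LP day 1 sample 5. Limits are the 6 and 5 samples, the low depth of LP day 1 sample 4, unknown hour of collection, and marker genes of neighboring cell types that varied between samples. The sets by sample number, the removal of 2 samples, and the CRY1 covariate with samples 3 and 4 summed were chosen after seeing the data. Sample numbers did not pair the groups, since the correlations between samples with the same number were -0.18 to 0.05 with a mean of -0.047 and 0 of 5 SP samples correlated best with their own number. With the sample number as a replicate block, 0 genes were called, with 144 higher and 188 lower at an unadjusted p under 0.05. Across 60 named genes, 1637 alternative values kept their direction and side of the threshold, 26 passed it, and 76 reversed, all of the latter in genes that were not called, and the cause was not tested. With samples 4 to 6 alone, reversed log2 fold changes were -0.64 for SEMA3D, -0.048 for NR4A1, 0.058 for L1CAM, 0.073 for THRA, 1.42 for MX1, 0.29 for IRF9, 1.74 for OAS2, -0.31 for TOP2A, and -0.20 for PRL. With samples 1 to 3 alone they were -0.052 for CGA, -0.51 for PAQR6, 0.015 for C1orf110, 1.06 for CRY1, -0.014 for TEF, 0.10 for CHGB, and -0.28 for GFAP. Without SP sample 3 and LP day 1 sample 5 they were -0.22 for PAQR6, 0.063 for CHGB, 0.017 for L1CAM, 0.069 for MX1, and -0.10 for GFAP. With SP samples 2, 3, and 5 they were -0.069 for CGA, -0.25 for PAQR6, -0.024 for NCAN, 0.014 for CHGB, and -0.41 for GFAP. Under the replicate block they were -0.15 for CGA, -0.096 for PAQR6, 0.53 for CRY1, and -0.51 for GFAP. With limma they were -0.13 for PAQR6, -0.46 for PRL, and -0.37 for GFAP. With the set by sample number as a covariate they were -0.033 for PAQR6, 0.16 for CRY1, and -0.037 for GFAP. Other reversals were -0.085 for CGA with samples 3 and 4 summed, with or without the CRY1 covariate, -0.0059 for PAQR6 in the exact test with gene-wise dispersion, -0.025 for PRL with the CRY1 covariate, and 4.5e-04 for MX1 with that covariate and samples 3 and 4 summed. Leaving out 1 sample reversed genes within these ranges, -0.088 to 0.17 for CGA, -0.39 to 0.19 for PAQR6, -0.47 to 0.19 for C1orf110, -0.53 to 0.11 for WIF1, -0.37 to 0.48 for CRY1, -0.12 to 0.087 for CHGB, -0.12 to 0.014 for L1CAM, -1.30 to 0.87 for MX1, -0.66 to 0.073 for IRF9, -1.91 to 0.95 for OAS2, -0.047 to 0.52 for TOP2A, -0.45 to 0.34 for PRL, and -0.47 to 0.40 for GFAP.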
